A study of Saccharomyces cerevisiae with 12 samples.

Results

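The genes of lysine biosynthesis in budding yeast, Saccharomyces cerevisiae, were described here in cells treated with poacic acid, a plant-derived compound that interferes with the cell wall. They were the 9 rows named LYS20, LYS21, LYS4, LYS12, LYS2, LYS5, LYS9, LYS1 and LYS14 among 7126 listed genes, and all 9 passed the filter on low values. The genes were picked by name with earlier results of the same libraries known, so their own values in these libraries are given as a description. No p-value is printed for any of them, and where the text says on which side of the table-wide threshold a lysine gene lay, or counts those past it, this too is a description and supports nothing. Which comparison drew the choice is not recorded.

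Wild-type cells of strain BY4741 and cells of the same background lacking SLT2, the MAP kinase gene of the cell wall integrity pathway, were grown in liquid culture. Each strain was sequenced without a drug and after 1 h with 100 µg/ml poacic acid. This gave 4 groups with 3 biological samples each (n = 3). Whether the untreated cultures grew for the same time as the treated ones is not clear from the sources used here. The part of growth time in the responses was not tested. Per the series' design text, the untreated and the treated library of a number came from 1 biological sample of the strain. All 4 groups share the BY4741 background, a haploid laboratory strain of mating type a with deletions in HIS3, LEU2, MET15 and URA3 and an intact LYS2. Neither the growth medium and its lysine content nor the number of slt2 clones is given in the sources used here. The values are RPKM, reads scaled to the length of the gene and the size of the library, so that levels can be set side by side between genes.

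Fungi make lysine from alpha-ketoglutarate and acetyl-CoA through alpha-aminoadipate, a route that animals and plants do not have. Homocitrate synthase commits carbon to the pathway and is inhibited by lysine. The intermediate alpha-aminoadipate semialdehyde lets the activator Lys14 switch on several of the genes, and the general amino acid control factor Gcn4 adds to their transcription when amino acids run short.

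Stretches of DNA before the start codons are shown because they hold matches to the known recognition sequences of these 2 regulators. The 500 bases before each start codon were read from the RefSeq R64 genome and searched on both strands for the core bound by Lys14, TCCNNNGGA, and for the core bound by Gcn4, TGACTCA. The Lys14 core was found before 5 of 9 lysine genes and before 404 of 6659 coding genes (6.07%). Its narrower forms, TCCANCGGA, TCCANTGGA, TCCGNCGGA and TCCGNTGGA, are contained in that core and were found before 3 of 9 lysine genes and 105 coding genes (1.58%). The Gcn4 core was found before 3 of 9 lysine genes and 274 coding genes (4.11%). The 500-base windows of LYS20, LYS4 and LYS5 held none of these letters, which says nothing about binding by either factor. Each match is printed on the strand of its gene, with 30 bases in all and the match in capitals.
LYS21, Lys14 core at bases 330 to 322 before the start codon, chrIV:227053-227082, plus strand: gagttgaaatTCCGCTGGAaatcgtcacca
LYS12, Lys14 core at bases 182 to 174, chrIX:187795-187824, minus strand: ttcactttttTCCCGTGGAaaaatattctt
LYS9, Lys14 core at bases 225 to 217, chrXIV:715594-715623, minus strand: gaatcgaaatTCCGTTGGAaaaattcgctt
LYS9, Lys14 core at bases 163 to 155, chrXIV:715532-715561, minus strand: attgagaattTCCAATGGAattatcagcaa
LYS1, Lys14 core at bases 196 to 188, chrIX:420913-420942, minus strand: atttttttttTCCAGCGGAatttggaattc
LYS14, Lys14 core at bases 216 to 208, chrIV:512306-512335, minus strand: tggaaaaattTCCTCAGGAatttcaaaatc
LYS2, Gcn4 core at bases 194 to 188, chrII:474102-474131, minus strand: tttttcgcgtgTGACTCAatgtcgaaatac
LYS1, Gcn4 core at bases 250 to 244, chrIX:420968-420997, minus strand: tactaagtcgaTGAGTCAaaaaagactctt
LYS14, Gcn4 core at bases 250 to 244, chrIV:512341-512370, minus strand: aggacgcgacgTGACTCAattggaagaaat

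In LYS21, LYS9 and LYS1 the Lys14 match has a narrower form, and LYS1 and LYS14 hold both kinds of match, which do not overlap. In LYS1 the Gcn4 core lies on the opposite strand, so it reads TGAGTCA in the direction of the gene.

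The libraries held 3462647 to 10542482 reads, and replicates of a group correlated across genes at 0.954 or more. For a gene 1 kb long, 3 reads were worth 0.285 to 0.866 RPKM depending on the library, a limit that covers counting error only. The libraries fitted their labels: SLT2 read 42.1, 45.8 and 49.99 RPKM in untreated wild type and at least 194 RPKM in treated wild type, while 4 of the slt2 libraries held 0 reads and the others, treated 2 and 3, held 1 read each. LEU2 was at 0 in all 12 libraries, and MET17 (MET15) and URA3 were at 0 in 11 libraries each and held 1 and 4 reads in the others. HIS3, which is only partly deleted in this background, read 39.1 to 75.0 RPKM. In the slt2 strain, libraries 3 stood apart for several of the lysine genes, so the slt2 responses of those genes are also given without these libraries.

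In untreated wild type the lysine genes spanned from LYS20, 271 ± 42 RPKM (SD, n = 3), to LYS5, 10.2 ± 1.2 RPKM. Between these came LYS12 (143 ± 15), LYS9 (132 ± 7.7), LYS21 (103 ± 1.5), LYS4 (75.3 ± 8.2), LYS2 (58.7 ± 1.7), LYS1 (34.9 ± 1.8) and LYS14 (17.8 ± 2.1). Only LYS12 and LYS9 overlapped among neighbours in that order. Averaged over the 12 libraries, LYS20 lay above 93.1% of tested genes and LYS5 above 21.9%. After poacic acid in wild type the order was the same, but LYS20 (114 to 164 RPKM) overlapped LYS12 (107 to 124), and LYS12 overlapped LYS9 (101 to 113). Untreated slt2 cells had the same order, and again the ranges of LYS12 and LYS9 were the only neighbouring ones that overlapped. In treated slt2 cells LYS9 (133 ± 31 RPKM) stood above LYS12 (130 ± 16), and LYS20 overlapped LYS9, LYS9 overlapped LYS12, and LYS2 overlapped LYS1.

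**Figure D1:**
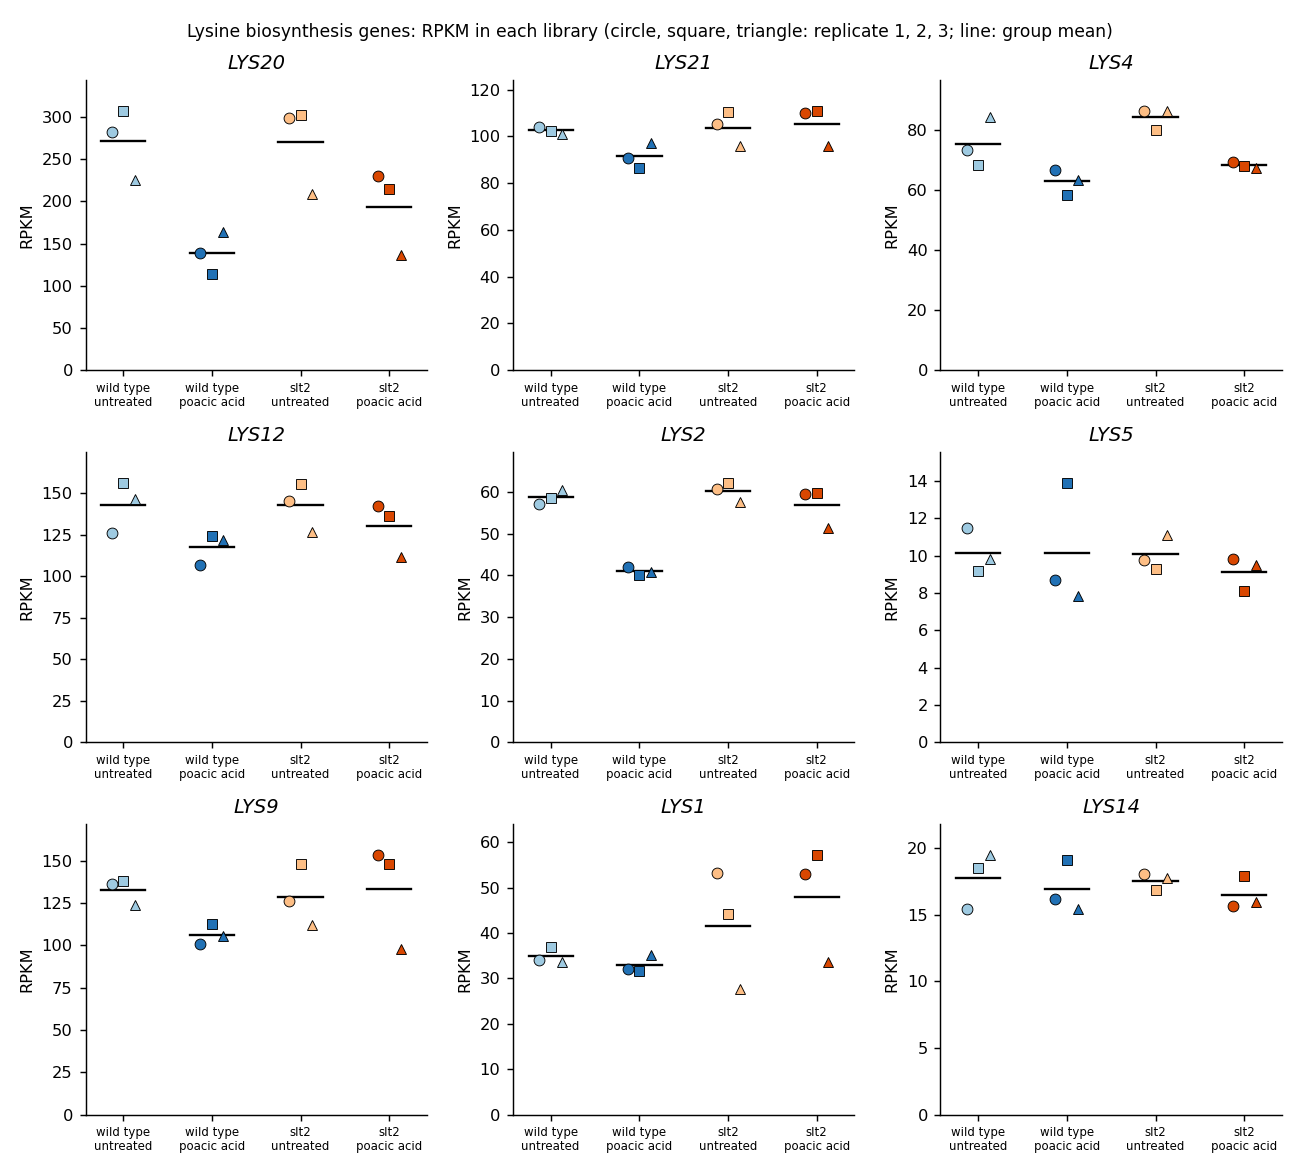
RPKM of each lysine gene in the 12 libraries, on a linear axis from 0 that differs between panels. Circles, squares and triangles are replicates 1, 2 and 3 and the line is the mean of the 3 libraries of a group. For LYS20 the treated wild-type libraries (114 to 164 RPKM) lie below all untreated ones (225 to 307), while LYS14 stays between 15.4 and 19.5 RPKM in all libraries.

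Homocitrate synthase, the entry enzyme, is encoded by LYS20 and LYS21. LYS20 (YDL182W, R64 chrIV:133437-134723, plus strand) held the largest difference among the lysine genes in wild type. Its level was 282, 307 and 225 RPKM in untreated libraries 1, 2 and 3 and 139, 114 and 164 RPKM in the treated ones, so the groups did not overlap. The means were 271 ± 42 and 139 ± 25 RPKM (SD, n = 3), and the log2 fold change was −0.96 ± 0.21 (SE), on the log2(RPKM + 1) scale used for all fold changes here. It ranked at position 24 from the lowest of 6222 tested genes. It was past the threshold of 0.05 on p-values from limma with Benjamini-Hochberg adjustment over all tested genes, except without untreated wild-type library 1 (log2 fold change −0.93) or 2 (−0.87). In a bulk culture, less of a transcript per cell and fewer cells that carry it cannot be told apart.

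In slt2 cells LYS20 read 299, 302 and 209 RPKM without and 230, 214 and 136 RPKM with the compound. Each treated library was below the untreated library of its number, at 0.768, 0.709 and 0.652 of it, but the groups overlapped because untreated library 3 lay below treated libraries 1 and 2. The means were 270 ± 53 and 193 ± 50 RPKM, with a log2 fold change of −0.50 ± 0.21 that was not past the threshold. It was −0.26 without treated slt2 library 3, −0.67 without untreated slt2 library 3 and −0.44 without both. In wild type the same ratios were 0.492, 0.372 and 0.729. The difference between the strains' responses was 0.47 ± 0.30, not past the threshold.

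LYS21 (YDL131W, R64 chrIV:227393-228715, plus strand) varied far less. It read 104, 102 and 101 RPKM in untreated and 90.9, 86.4 and 97.1 RPKM in treated wild type, with no overlap and a log2 fold change of −0.17 ± 0.11. In slt2 cells it read 105, 110 and 95.7 RPKM without and 109.8, 111 and 95.7 RPKM with the compound, a log2 fold change of 0.02 ± 0.11. Neither fold change was past the threshold. The slt2 value lay below 0 in 5 of 23 other settings, at −0.01 with median scaling or quantile normalisation and −0.03 without untreated slt2 library 3. It was 0.09 without treated slt2 library 3 and 0.03 without both libraries. Settings that left out a wild-type library, or changed only the filter or variance model, could not move this value. The 23 settings therefore overstate how steady its sign is.

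The balance between the copies was described by their ratio. LYS20 was 2.71, 3.00 and 2.22 times the level of LYS21 in untreated wild type and 1.53, 1.32 and 1.69 times after poacic acid. In slt2 cells the ratio was 2.84, 2.74 and 2.18 without and 2.09, 1.93 and 1.42 with the compound. The treated ratio was below the untreated ratio of the same number in all 6 pairs, and in both strains every treated ratio lay below every untreated one. These ratios follow from the values that chose the genes and were not tested.

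**Figure D2:**
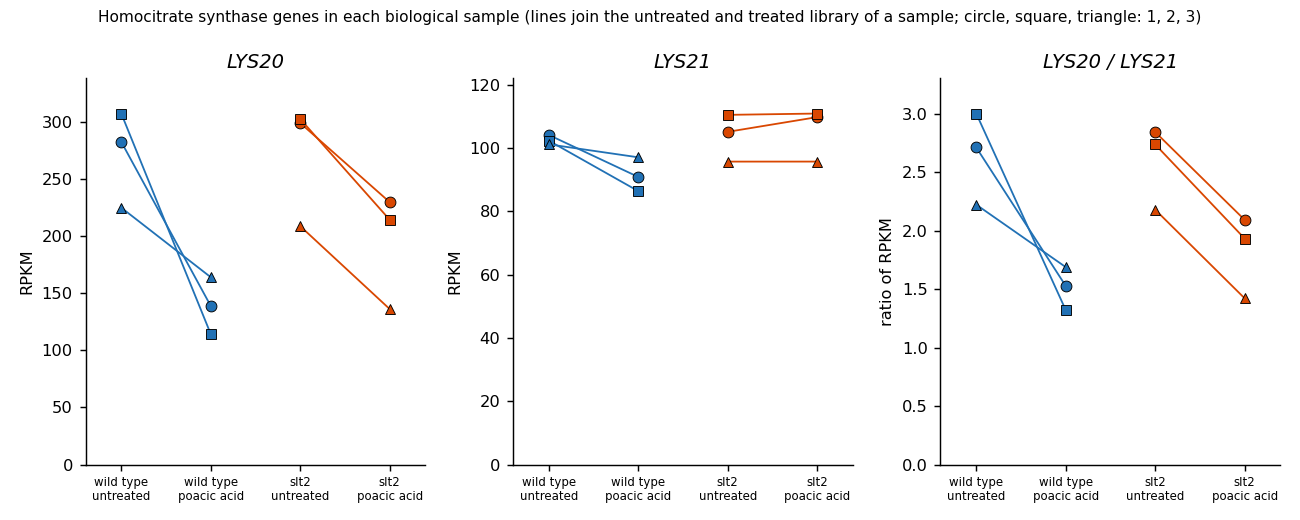
LYS20 and LYS21 in RPKM and their ratio, with a line from the untreated to the treated library of each biological sample (circles, squares and triangles are samples 1, 2 and 3, wild type in blue and slt2 in orange). All 6 lines of LYS20 and of the ratio go down (in wild type the ratio lies between 2.22 and 3.00 without and between 1.32 and 1.69 with the compound), while LYS21 stays between 86.4 and 111 RPKM.

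The copies are close in sequence, which bears on these values. Their coding sequences, of 1287 and 1323 bases, were 91.6% identical over 1281 aligned bases, with a longest identical run of 278 bases, and 37.8% of the 50-base stretches of LYS20 (468 of 1238) also occur in LYS21. How reads that match both genes were handled is not given in the sources used here, so the values of LYS20 and LYS21 are uncertain. Of the aligned stretches without gaps, at the length printed below, that with the most differing bases lies near the 3′ ends. Stretches with gaps were not compared. The stretch with 20 differing bases, shown in capitals at the same aligned positions, is printed because reads that cross it can be told apart.
LYS20, coding bases 1155 to 1214, chrIV:134591-134650, plus strand: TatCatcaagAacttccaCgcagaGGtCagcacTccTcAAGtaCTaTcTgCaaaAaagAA
LYS21, coding bases 1197 to 1256, chrIV:228589-228648, plus strand: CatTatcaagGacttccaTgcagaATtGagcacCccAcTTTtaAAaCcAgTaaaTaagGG

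The next steps convert homocitrate to alpha-ketoadipate in mitochondria. LYS4 (YDR234W, R64 chrIV:931129-933210, plus strand), which encodes homoaconitase, read 73.3, 68.3 and 84.3 RPKM in untreated and 66.9, 58.6 and 63.4 RPKM in treated wild type. It read 86.3, 80.2 and 86.5 RPKM in untreated and 69.5, 68.0 and 67.5 RPKM in treated slt2 cells. The treated libraries lay below the untreated ones in both strains, and LYS4 was the only lysine gene without overlap in slt2. The log2 fold changes were −0.25 ± 0.11 and −0.30 ± 0.11, neither past the threshold.

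LYS12 (YIL094C, R64 chrIX:186517-187632, minus strand), which encodes homoisocitrate dehydrogenase, read 126, 156 and 146 RPKM in untreated and 107, 124 and 121 RPKM in treated wild type. The groups did not overlap, and the log2 fold change was −0.28 ± 0.13, not past the threshold. In slt2 cells it read 145, 156 and 127 RPKM without and 142, 136 and 112 RPKM with the compound, so the groups overlapped. The slt2 log2 fold change was −0.13 ± 0.13, not past the threshold. It was −0.03 without treated slt2 library 3, −0.215 without untreated slt2 library 3 and −0.11 without both.

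Alpha-aminoadipate is then reduced by the Lys2 enzyme, which Lys5 activates by adding a phosphopantetheinyl group. LYS2 (YBR115C, R64 chrII:469748-473926, minus strand) was the steadiest of the lysine genes. Its spread within groups, 0.072 on the log2 scale, was lower than that of all but 0.8% of tested genes. It read 57.0, 58.7 and 60.4 RPKM in untreated and 42.1, 40.1 and 40.8 RPKM in treated wild type, a log2 fold change of −0.51 ± 0.10 that was past the threshold. With only the 6 wild-type libraries in the fit, the fold change was the same but not past the threshold. In slt2 cells LYS2 read 60.8, 62.1 and 57.5 RPKM without and 59.4, 59.8 and 51.3 RPKM with the compound, a log2 fold change of −0.08 ± 0.10. The 3 treated wild-type libraries therefore lay below all 9 others, which held at least 51.3 RPKM. The slt2 log2 fold change was −0.01 without treated slt2 library 3, −0.11 without untreated slt2 library 3 and −0.04 without both. The difference between the responses was 0.43 ± 0.15 and was not past the threshold.

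LYS5 (YGL154C, R64 chrVII:215278-216096, minus strand) was the lowest of the lysine genes, with 23 to 120 reads per library. It read 11.5, 9.18 and 9.85 RPKM in untreated and 8.73, 13.9 and 7.84 RPKM in treated wild type. The slt2 libraries read 9.79, 9.29 and 11.1 RPKM without and 9.84, 8.11 and 9.5 RPKM with the compound. The groups overlapped in both strains, and a difference smaller than this spread was not detectable. The parts of depth and of variation between replicates in that spread were not told apart.

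The final steps go through saccharopine. LYS9 (YNR050C, R64 chrXIV:714048-715388, minus strand), which encodes the saccharopine-forming reductase, read 136, 138 and 124 RPKM in untreated and 101, 113 and 105 RPKM in treated wild type. These groups did not overlap, and the log2 fold change was −0.32 ± 0.16, not past the threshold. In slt2 cells it read 126, 148 and 112 RPKM without and 153, 148 and 97.7 RPKM with the compound, with libraries 3 lowest in both groups and a log2 fold change of 0.03 ± 0.16. It was 0.24 without treated library 3, −0.07 without untreated library 3 and 0.14 without both, and −0.01 with median scaling.

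LYS1 (YIR034C, R64 chrIX:419615-420736, minus strand), which encodes saccharopine dehydrogenase, the enzyme that releases lysine, kept close to 1 level in wild type. It read 34.1, 37.0 and 33.7 RPKM without and 32.0, 31.6 and 35.1 RPKM with the compound. The slt2 libraries spread more, at 53.1, 44.1 and 27.7 RPKM without and 53.1, 57.1 and 33.6 RPKM with it. The log2 fold changes were −0.09 ± 0.22 and 0.21 ± 0.22, neither past the threshold. The slt2 value was −0.05 without untreated slt2 library 3, 0.44 without treated slt2 library 3 and 0.18 without both.

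LYS14 (YDR034C, R64 chrIV:509737-512109, minus strand), which encodes the activator, read 15.4, 18.5 and 19.5 RPKM in untreated and 16.1, 19.1 and 15.4 RPKM in treated wild type. It read 18.1, 16.8 and 17.7 RPKM in untreated and 15.6, 17.9 and 16.0 RPKM in treated slt2 cells. All groups overlapped, and the log2 fold changes were −0.07 ± 0.13 and −0.09 ± 0.13.

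In wild type, all 9 log2 fold changes were below 0, where 46.5% of tested genes were, and their median was −0.25 against 0.03 over all 6222. The 6 genes without overlap between treated and untreated libraries were LYS20, LYS21, LYS4, LYS12, LYS2 and LYS9, all lower, where 9.39% of tested genes were without overlap in that direction. LYS20 and LYS2 were past the threshold, 2 of 9, where 5.83% of tested genes were past it in either direction and 1.96% as lower. With a term for the biological sample, 671 genes of the table were past it in place of 363, and LYS20 and LYS2 were the same 2 of 9. The genes were chosen with results of these data known, so nothing is read from these counts. In slt2 cells 0 of 9 were past the threshold by limma, where 8.45% of tested genes were, and 2 of 9 had an unadjusted p under 0.05, where 22.4% of tested genes did. LYS4 was the single gene of 9 without overlap, where 12.8% of tested genes were in that direction, 6 of 9 fold changes were below 0, where 45.1% of tested genes were, and the median was −0.09 against 0.03.

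For the difference between the 2 responses, 0 of 9 were past the threshold by limma, where 1.72% of tested genes were (107, and 179 with a term for the biological sample, which also called 0 of 9), and 1 of 9 had an unadjusted p under 0.05, where 11.9% did. Nothing is read from these counts either. The differences ranged from −0.09 (LYS5) to 0.47 (LYS20), with a median of 0.19 against 0.02 over all tested genes. Without treated slt2 library 3 that of LYS20 was 0.70, and without untreated slt2 library 3 it was 0.29.

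**Figure D3:**
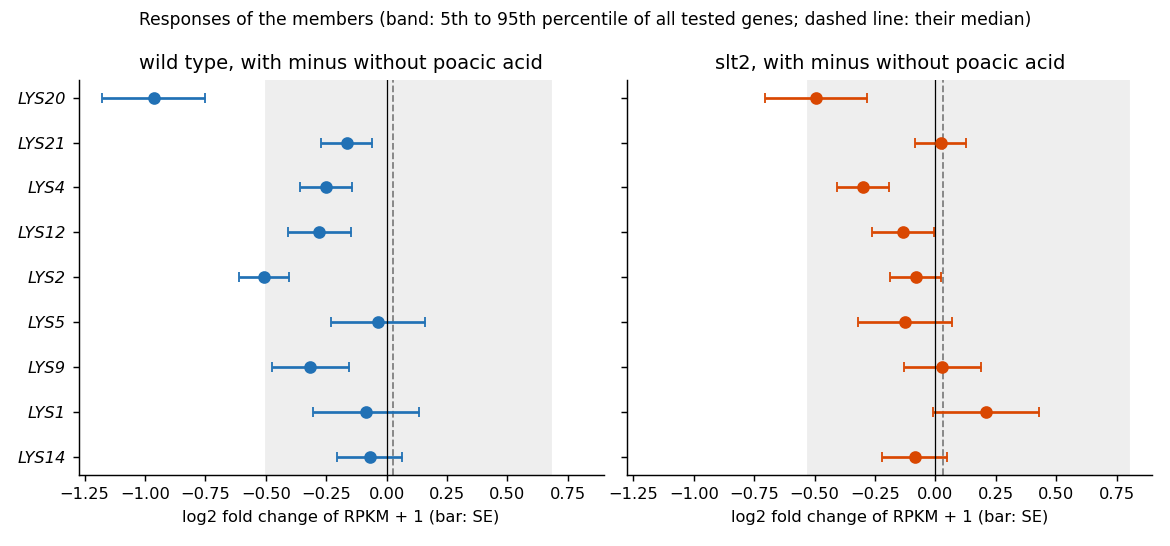
Log2 fold change of RPKM + 1 with its standard error for each lysine gene, treated minus untreated, in wild type (blue) and in slt2 (orange). The grey band is the 5th to 95th percentile of all tested genes, −0.50 to 0.68 in wild type and −0.53 to 0.80 in slt2, and the dashed line is their median. LYS20 and LYS2 lie below the band in wild type, and no lysine gene lies outside it in slt2.

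Without poacic acid the log2 differences between the strains, slt2 minus wild type, ran from −0.05 (LYS9) to 0.20 (LYS1), with a median of −0.00 against −0.08 over all tested genes. Without untreated slt2 library 3 they ran from −0.08 (LYS5) to 0.46 (LYS1), with a median of 0.07, and LYS20 went from −0.02 to 0.16. By limma 0 of 9 were past the threshold, where 1.75% of tested genes were, and 0 of 9 had an unadjusted p under 0.05, where 24.3% did. No lysine gene was without overlap between the strains, where 23.8% of tested genes were as lower and 11.3% as higher in slt2.

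With poacic acid the log2 differences ran from −0.10 (LYS5) to 0.49 (LYS1), with a median of 0.20 against −0.07. LYS2, at 56.9 ± 4.8 RPKM in slt2 and 41.0 ± 0.99 RPKM in wild type (log2 difference 0.46 ± 0.10), was the 1 gene past the threshold, where 8.21% of tested genes were past it in either direction and 3.99% as higher. LYS2 was not past it without treated slt2 library 1 (0.43) or 2 (0.42). LYS2 and LYS4 were without overlap and higher in slt2, where 8.94% of tested genes were. Leaving out treated slt2 library 3 gave 4 of 9 past the threshold, LYS1 (0.73), LYS20 (0.69), LYS2 (0.53) and LYS9 (0.50). The share of all tested genes past it without that library is not given here, so nothing is read from this count. The treated groups of both strain and response comparisons are the same libraries, so these values share their samples.

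The slt2 libraries numbered 3 were the lowest of their group, both without and with the compound, for LYS20, LYS21, LYS12, LYS2, LYS9 and LYS1, 6 of 9 lysine genes, where 24.3% of tested genes (1511 of 6222) were. LYS1 was 43.0% and 39.1% below the mean of libraries 1 and 2, untreated and treated. LYS20 was 30.6% and 38.7% below it, and LYS9 18.1% and 35.1%. The gap was smaller for LYS12 (15.7% and 19.7%), LYS21 (11.2% and 13.2%) and LYS2 (6.5% and 13.9%). LYS4, LYS5 and LYS14 were not lowest in both of these libraries. The totals of these libraries were 4825359 and 4753989 reads, below the median of 6671227.5 over the 12 libraries. Only treated slt2 library 2, with 3462647, was lower. The part of depth was not tested, and the part of this biological sample in the slt2 results was not tested beyond leaving it out.

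**Figure D4:**
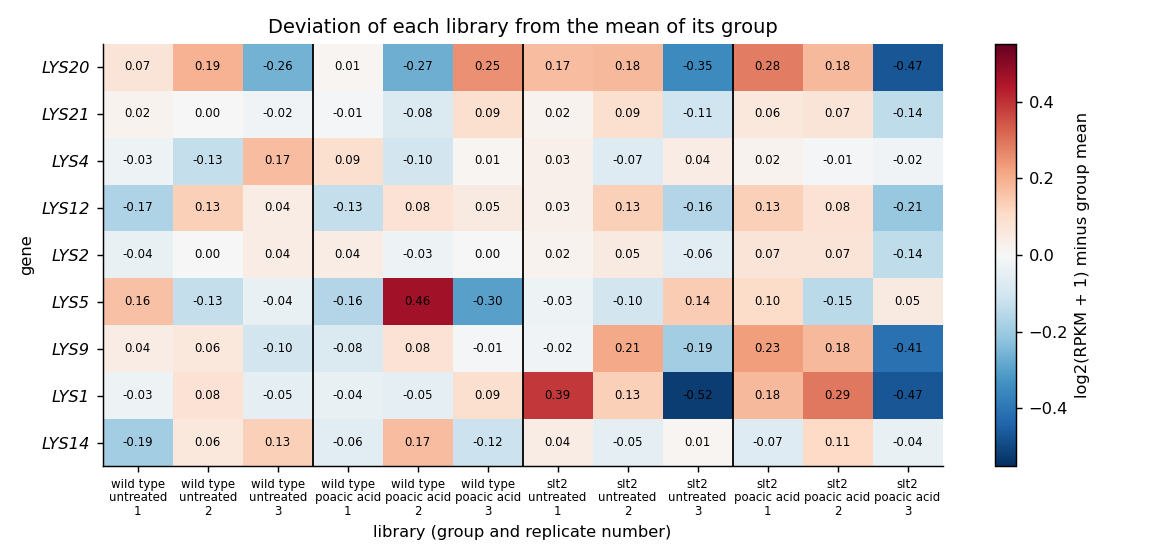
Deviation of each library from the mean of its group, in log2(RPKM + 1), for the 9 lysine genes (rows) in the 12 libraries (columns, with black lines between groups). Red is above and blue below the group mean. The column of treated slt2 library 3 holds −0.47 for LYS20, −0.41 for LYS9 and −0.47 for LYS1, and the column of untreated slt2 library 3 holds −0.35, −0.19 and −0.52.

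Deviations from the group means showed which lysine genes moved together between replicates. Over the 12 libraries LYS20 and LYS21 had the highest Pearson correlation, 0.921, followed by LYS20 with LYS1 (0.844) and LYS21 with LYS1 (0.827). Whether reads that match both genes entered the values of LYS20 and LYS21, and their part in this correlation, was not tested. LYS4, LYS5 and LYS14 did not follow the others, with correlations from −0.566 (LYS5 with LYS21) to 0.395 (LYS14 with LYS12). The median over the 36 pairs was 0.202 against 0.05 over pairs of all tested genes, and it was −0.028 without the slt2 libraries numbered 3. For the 6 genes that were lowest in those libraries, a set chosen after the values were seen, the median over 15 pairs went from 0.773 to 0.1 when they were left out. Since the 6 were picked for being low in those libraries, a drop of this kind follows in part from the choice, and pairs among them without those libraries ran from −0.455 to 0.743.

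The genes whose profile over the 12 libraries was most like the mean standardised profile of the lysine enzyme genes were NCE102 (Pearson r 0.883, Spearman rho 0.797), PHO8 (0.876 and 0.853), PHO11 (0.852 and 0.874), SOD1 (0.847 and 0.839) and PHO12 (0.834 and 0.762). Without the 2 libraries farthest from the median of that profile, treated wild-type 1 and 3, r was 0.786 to 0.934. The slt2 libraries numbered 3 stayed in, so their part in the likeness was not tested. NCE102 encodes a membrane protein of eisosomes, PHO8, PHO11 and PHO12 encode phosphatases of the phosphate response, and SOD1 encodes the copper-zinc superoxide dismutase. NCE102 read 188 ± 38 RPKM in untreated and 88.7 ± 6.0 RPKM in treated wild type, and 178 ± 26 and 173 ± 36 RPKM in slt2. PHO11 read 372, 331 and 66.9 RPKM in untreated and 275, 275 and 41.9 RPKM in treated slt2 cells, so it too was lowest in the libraries numbered 3. So were NCE102, PHO8, SOD1 and PHO12, both without and with the compound. PHO8 read 97.1 RPKM in untreated and 87.4 RPKM in treated slt2 library 3. PHO11 and PHO12 are near-identical copies and their values are uncertain. The libraries of a group share their treatment and strain, so these correlations are a description over 12 libraries that are not 12 independent conditions. Among the lysine genes themselves, LYS2 (0.923) and LYS20 (0.904) correlated most with the mean profile, LYS14, which is not in it, gave 0.218, and LYS5 gave −0.033. The enzyme genes make up the profile, so their own values are raised by construction. They cannot be set beside those of LYS14 or of other genes.

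Genes around the pathway were read from the same fit, and their adjusted p-values are those of limma, with the Benjamini-Hochberg method across the whole table. Of 3 pathway partners, 0 were past the threshold by limma in either strain, where 5.83% and 8.45% of tested genes were. Of the 3, 1 had an unadjusted p under 0.05 in wild type and 0 in slt2, where 21.5% and 22.4% of tested genes did. ARO8, which encodes an aminotransferase that makes alpha-aminoadipate, read 226 ± 6.1 and 205 ± 25 RPKM in wild type and 192 ± 17 and 195 ± 6.3 RPKM in slt2 (limma adjusted p = 0.502 and 0.936).

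Among 12 genes of alpha-ketoglutarate supply and its retrograde control, 1 was higher in wild type and 4 in slt2, with 0 lower in either, where 3.87% and 5.29% of tested genes were called higher. CIT1, the mitochondrial citrate synthase, rose from 67.8 ± 9.6 to 114 ± 16 RPKM in wild type (log2 fold change 0.74 ± 0.14, limma adjusted p = 0.00636) and from 45.9 ± 2.9 to 75.2 ± 6.8 RPKM in slt2 (0.70 ± 0.14, adjusted p = 0.00651). PYC1, a pyruvate carboxylase, rose from 105 ± 1.0 to 208 ± 40 RPKM in slt2 (0.96 ± 0.16, limma adjusted p = 0.00161) and read 88.1 ± 6.2 and 100.1 ± 19 RPKM in wild type (adjusted p = 0.588). MKS1, a negative regulator of that control whose loss is known to raise lysine synthesis, read 23.6 ± 4.0 and 27.1 ± 0.89 RPKM in wild type and 22.8 ± 2.3 and 23.4 ± 3.2 RPKM in slt2 (limma adjusted p = 0.472 and 0.94).

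Of 11 tested genes for lysine uptake, vacuolar transport and charging, 0 were past the threshold in wild type by limma, where 5.83% of tested genes were. In wild type 3 of the 11 had an unadjusted p under 0.05, where 21.5% of tested genes did. In slt2 1 was past the threshold, where 8.45% of tested genes were. That gene was GAP1, the general amino acid permease, which rose from 17.1 ± 6.0 to 52.1 ± 7.2 RPKM in slt2 (log2 fold change 1.61 ± 0.24, limma adjusted p = 0.00103) and read 12.2 ± 2.4 and 12.99 ± 2.7 RPKM in wild type (adjusted p = 0.891). LYP1, the lysine permease, read 81.8 ± 16 and 74.5 ± 7.1 RPKM in wild type and 87.7 ± 1.4 and 82.7 ± 4.6 RPKM in slt2 (limma adjusted p = 0.671 and 0.782). KRS1, the cytosolic lysyl-tRNA synthetase, read 532 ± 28 and 438 ± 60 RPKM in wild type and 398 ± 45 and 350 ± 65 RPKM in slt2 (limma adjusted p = 0.283 and 0.492).

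GCN4 was the 1 of 5 general amino acid control genes past the threshold, in wild type, where 5.83% of tested genes were. Its level was 426 ± 43 RPKM in untreated and 310 ± 47 RPKM in treated wild type (log2 fold change −0.46 ± 0.12, limma adjusted p = 0.0424), and 358 ± 19 and 353 ± 14 RPKM in slt2 (adjusted p = 0.963). The wild-type call was lost in 14 of 23 other settings, with an adjusted p of up to 0.163 without treated wild-type library 3. Gcn4 is controlled mainly in translation, which these libraries did not measure.

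Other amino acid pathways did not all follow the lysine genes. Of 10 arginine genes, 5 were higher in slt2 and 0 in wild type by limma, where 5.29% and 3.87% of tested genes were. In wild type 0 of 10 had an unadjusted p under 0.05, where 21.5% of tested genes did. The median log2 fold change of the arginine genes was 0.57 in slt2 and −0.01 in wild type. ARG7 rose from 32.7 ± 1.7 to 51.9 ± 3.5 RPKM in slt2 (limma adjusted p = 0.00231), and ARG4, which encodes argininosuccinate lyase, rose from 34.4 ± 4.5 to 58.4 ± 1.0 RPKM (adjusted p = 0.00743). The difference between the strains' responses was past the threshold by limma for 0 of 10, where 6 had an unadjusted p under 0.05, so it was not shown for a gene of the list. Of 11 genes for leucine, isoleucine and valine, 2 were lower in wild type and 1 in slt2, where 1.96% and 3.17% of tested genes were, with medians of −0.23 and −0.21. ILV5, which encodes acetohydroxyacid reductoisomerase, was lower in both strains, by −0.47 ± 0.12 in wild type (limma adjusted p = 0.0399) and −0.47 ± 0.12 in slt2 (adjusted p = 0.0311), but quantile normalisation gave 0.221 and 0.207. The ILV5 call was lost in 12 of 23 other settings in wild type and 9 of 23 in slt2. LEU9, an isopropylmalate synthase, fell from 95.3 ± 9.8 to 57.6 ± 13 RPKM in wild type (limma adjusted p = 0.0162, and 0.0695 without treated wild-type library 3). That call was lost in 4 of 23 other settings. Of 6 histidine genes 0 were past the threshold in either strain by limma, where 5.83% and 8.45% of tested genes were. In each strain 2 of the 6 had an unadjusted p under 0.05, where 21.5% and 22.4% of tested genes did. Of 13 aromatic genes, TYR1, which encodes prephenate dehydrogenase, was higher in wild type (0.50 ± 0.12, limma adjusted p = 0.0286, and 0.124 with only the wild-type libraries in the fit), and ARO9, an aromatic aminotransferase, was higher in slt2 (1.90 ± 0.20, adjusted p = 5.35e-05). The TYR1 call was lost in 5 of 23 other settings. The aromatic list thus held 1 of 13 called higher in each strain, where 3.87% of tested genes were in wild type and 5.29% in slt2.

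**Figure D5:**
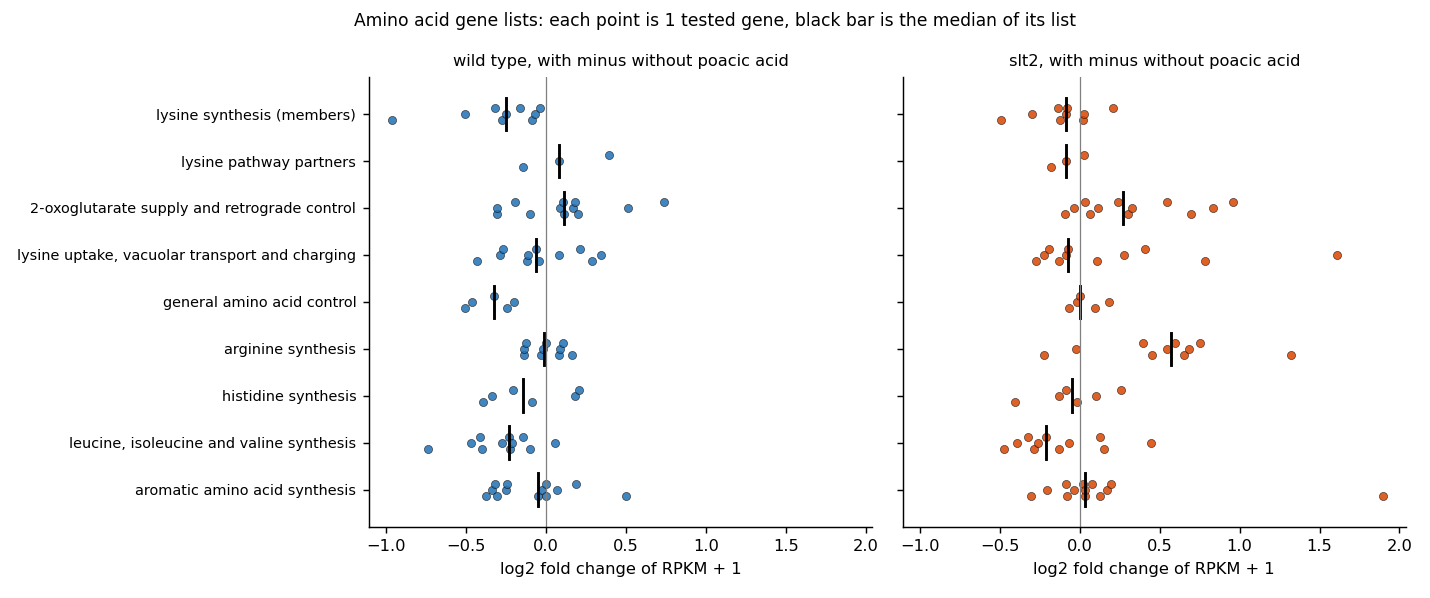
Log2 fold change of RPKM + 1 with poacic acid minus without, in wild type (left) and slt2 (right), for the lysine genes and 8 lists of related genes. Each point is 1 tested gene and the black bar is the median of its list. The median of the lysine genes is −0.25 in wild type and −0.09 in slt2, and that of the arginine genes is −0.01 and 0.57.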

How the data were processed

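Gene expression was measured by RNA sequencing of rRNA-depleted RNA with a strand-marking kit, per the labels' protocols. The deposited table gives RPKM per gene and library per the file headers, written with decimal commas, and genome build R64 per the submitters' processing notes. No aligner, counter, strand setting or rule for reads with several matches is given in the sources used here. Coding genes gave whole reads within 0.01 read for 92.7 to 95.1% of genes per library, from which totals were derived. The labels' growth text gives another time than the treatment text and the series' design, whose 1 h was used. None of these texts makes clear whether untreated and treated cultures grew for the same time.

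The 6222 genes that reached 1 RPKM in at least 3 libraries were tested on log2(RPKM + 1) with limma 3.58.1 in R 4.3.3, using an intensity trend and robust variances. The model held 1 mean for each of the 4 groups, and p-values were adjusted by the Benjamini-Hochberg method over the whole table. The 5 comparisons were the response in each strain, their difference, and the strain difference without and with poacic acid. VBA3 was listed but not tested. The fit was also run on simulated counts, drawn with the same dispersion for every gene and no shared biological samples. That run does not bear on pairing or on libraries that stand apart. Fold changes on this scale understate changes of low genes. Sequences came from RefSeq R64, where 5989 genes matched by identifier and 5981 of these had the start and end of the table, and motif counts and identity were computed with Python 3.11.15 and Biopython 1.88. No listed gene overlaps a lysine gene.

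The lysine genes and the gene lists were chosen with earlier results of these data known. Beside the lysine genes and SLT2, the named genes were ARO8, GCN4, MKS1, LYP1 and KRS1, up to 2 genes per list with the smallest adjusted p under 0.05 in each response, and the 5 coding genes closest to the enzymes' mean profile. A planned gene is not reported here.

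Pairing comes from the series' design text, by which 2 libraries were made from each biological sample. Deviations from the group means of same-numbered untreated and treated libraries correlated at −0.136, 0.275 and −0.035 in wild type and 0.034, 0.232 and 0.335 in slt2. Libraries of different numbers correlated at −0.349 to 0.233, and in wild type those of untreated 1 with treated 3 (0.227) and untreated 3 with treated 1 (0.233) lay above their same-numbered pairs, so the pairing rests on the design text. Other pseudocounts, filters, scalings, variance models, library weights, library sets and a replicate block were tried. Leaving out both slt2 libraries numbered 3 was chosen after seeing the data.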

Additional observations from a re-analysis of the deposited data

Results flagged for a closer look

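GAP1 differed between the strains in its response to poacic acid. The response in slt2 was 1.53 log2 units above that in wild type (SE 0.34, limma adjusted p = 0.0386 for the difference). It was higher in every treated slt2 library than in the untreated ones, and the call was lost in 7 of 22 other settings, with an adjusted p of up to 0.117 without untreated wild-type library 1. ARO9 differed in the same direction, by 1.92 log2 units (SE 0.29, limma adjusted p = 0.00218, from 0.000741 to 0.0188 over the other settings).

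LYS21 was lower in the treated library of all 3 wild-type pairs, at 0.873, 0.844 and 0.960 of the untreated library, and not lower in any of the 3 slt2 pairs, at 1.044, 1.004 and 1.000. The slt2 response was 0.19 log2 units above the wild-type response (SE 0.15), which was not past the threshold of the fit over all genes. That the pairs go apart in direction was not tested. The slt2 response lay below 0 in 5 of 23 other settings, at −0.014 with median scaling and with quantile normalisation, and the slt2 ratio of pair 3 rests on 95.71 against 95.72 RPKM. Many of the 23 settings, such as those without a wild-type library, could not move this response.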

How the results depend on the processing

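Of 1026 fold changes of lysine genes under other settings, 1024 moved by less than the spread between replicates and 2 by more, and 0 called values changed sign. Many of the 1026 could not move. Changing the filter or variance model, or leaving out a library of a group not compared, leaves a fold change as it was. The count of 1024 is therefore no measure of stability. LYS20 kept its place past the threshold in wild type in 21 of 23 settings (−1.09 to −0.83) and LYS2 in 22 of 23 (−0.55 to −0.48). The number of lysine genes past it in wild type was 1 with only the groups compared and 1 to 2 with 1 library left out. In slt2 it was 1 with library weights (LYS4). With poacic acid, the strain difference gave 4 with library weights, 0 with only the groups compared, 4 without both slt2 libraries numbered 3, and 0 to 4 with 1 library left out. Library weights also raised the count of all tested genes past the threshold, in the wild-type and in the slt2 response. Fitting only the groups compared lowered that count in wild type and raised it in slt2. The lysine counts were not set against these table-wide moves, so nothing is read from how they moved. For the lysine genes, the median difference of responses was 0.064 to 0.255 with 1 library left out, lowest without untreated slt2 library 3. The replicate block left the lysine calls at 2, 0, 0, 0 and 1 in the 5 comparisons. For the responses and their difference the block was the biological sample within a strain. For the strain differences it was the library number across strains, which the design text, as given here, does not pair. The block moved related genes called lower in wild type from 3 to 6, and it ended no call of a named gene. Related genes called higher in wild type (2) were 1 with only the groups compared and 1 to 2 with 1 library left out. Those called lower in wild type (3) were 1 with neither trend nor robust variances, 0 with only the groups compared, and 0 to 6 with 1 library left out. Those called higher in slt2 (11) were 6 to 14 with 1 library left out. Those called lower in slt2 (1) were 0 with median scaling, 0 with neither trend nor robust variances, 3 with library weights, 0 without both slt2 libraries numbered 3, and 0 to 2 with 1 library left out. The cause of these moves was not tested. LYS5 held the fewest reads of the lysine genes, as few as 23 in a library, and what depth adds to its spread was not tested.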
